A study of Mus musculus with 18 samples.

Results

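The genes described here are those of the mitochondrial carrier family, named Slc25a and a number, in the substantia nigra of mice. They were taken by symbol, as every listed gene named Slc25a followed only by a number, leaving aside 1 symbol, which gave 46 of the 55270 genes listed. The carriers are small proteins, most of them in the inner mitochondrial membrane, that move nucleotides, phosphate, amino acids, carboxylates, coenzymes and metal ions between the cytosol and the matrix. They feed oxidative phosphorylation with ADP and phosphate and return the ATP, and they run the malate-aspartate shuttle by which neurons bring reducing equivalents into mitochondria. SIRT3 is the main protein deacetylase of the mitochondrial matrix.

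Poly-A RNA of the substantia nigra was sequenced in 3 groups of 6 libraries. The labels number the libraries within a group as replicates but say nothing more of separate animals, and p-values measure the spread between these libraries. Intact mice are labelled wild type with no treatment named. AAV-GFP mice carried green fluorescent protein and AAV-SIRT3 mice carried SIRT3, each delivered by an adeno-associated virus. Mice were 3 months old at collection, 1 month after the virus, and the labels used here name neither the promoter nor the cells that took up the virus. Both AAV groups differ from intact mice by the delivery and the virus together, and these cannot be told apart in a comparison with intact tissue. Sirt3 itself had a mean of 1824 ± 66.3 normalised reads over the intact libraries, of 1775 ± 92.4 over those of AAV-GFP and of 1937 ± 79.4 over those of AAV-SIRT3 (SD, n = 6 each), and it did not pass the threshold in AAV-SIRT3 against AAV-GFP (limma, Benjamini-Hochberg adjusted p = 0.183).

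Depth lay between 47182529 and 64728587 reads per library. A normalised read is a read counted for a gene, divided by the size factor of its library. Markers of dopaminergic neurons were present in every library, with a sum over 9 genes of at least 41010 normalised reads. In AAV-GFP against intact 8 of these 9 had a negative log2 fold change (median -0.30) and 2 passed the threshold as lower, where 1.02% of all genes did. In the same comparison 3 of 8 microglia and 1 of 7 astrocyte markers passed as higher, against 0.823% of all genes. The thalamus marker sum over 8 genes ran from 32290 to 77868 in intact libraries, from 63757 to 74054 in AAV-GFP and from 58511 to 81593 in AAV-SIRT3. Against intact, 6 of 8 thalamus markers passed the threshold as higher in AAV-SIRT3 and 2 of 8 in AAV-GFP, and all 3 anterior pituitary markers passed as lower in both. In AAV-SIRT3 against intact 4 of 8 microglia markers passed as higher, as did 2 of 8 markers of neurons in general, 2 of 8 of oligodendrocytes and 1 of 4 of GABAergic neurons, while 3 of 6 endothelial and 2 of 6 choroid plexus markers passed as lower. Of all genes 11.3% passed as higher and 10.3% as lower there. In AAV-SIRT3 against AAV-GFP 1 of 8 microglia markers passed as lower, where 0.0771% of all genes did, and no marker of the other lists passed. There 8 of 9 dopaminergic (median log2 fold change 0.20), 4 of 4 GABAergic (0.19) and 0 of 6 endothelial markers (-0.35) were above 0. Of these 3 lists 5, 3 and 5 markers had an unadjusted limma p under 0.05, against 15.2% of all genes. In bulk tissue, fewer cells of a type and less RNA per cell cannot be told apart. Among the AAV-GFP libraries, replicate 2 was the highest for 19 of the 40 carriers with a mean of at least 50 normalised reads, so results that rest on it are given with and without it.

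In intact tissue an ADP/ATP carrier, Slc25a4, led the family. To compare genes, values were divided by the length of merged exons in GENCODE M21 (GRCm38), which matched 46 of 46 carriers. Slc25a4, the ADP/ATP carrier of heart, muscle and brain, was highest at 18887 ± 1042 normalised reads per kb (SD, n = 6). Slc25a5, its isoform of dividing and many other cells, followed at 10269 ± 514, and Slc25a3, the phosphate carrier, had a mean of 10056 and a lowest library of 9745. The libraries of Slc25a5 and Slc25a3 overlapped, so the order of these neighbours is not set, while Slc25a4 lay above both in every library.

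Next came Slc25a23, a calcium-regulated ATP-Mg/phosphate carrier, at 4105 ± 213 normalised reads per kb, and Slc25a11, the oxoglutarate/malate carrier, at 3308 ± 133. The glutamate carrier Slc25a22 (2541 ± 166), the glutathione carrier Slc25a39 (2419 ± 23.6) and the second glutamate carrier Slc25a18 (2276 ± 98.5) overlapped their neighbours in that order. Slc25a12, the aspartate/glutamate carrier known as aralar, stood at 1897 ± 77.3 and overlapped neither neighbour. Before division by length, Slc25a4 alone held 21.1% of all carrier reads and Slc25a3 11.3%.

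**Figure D1:**
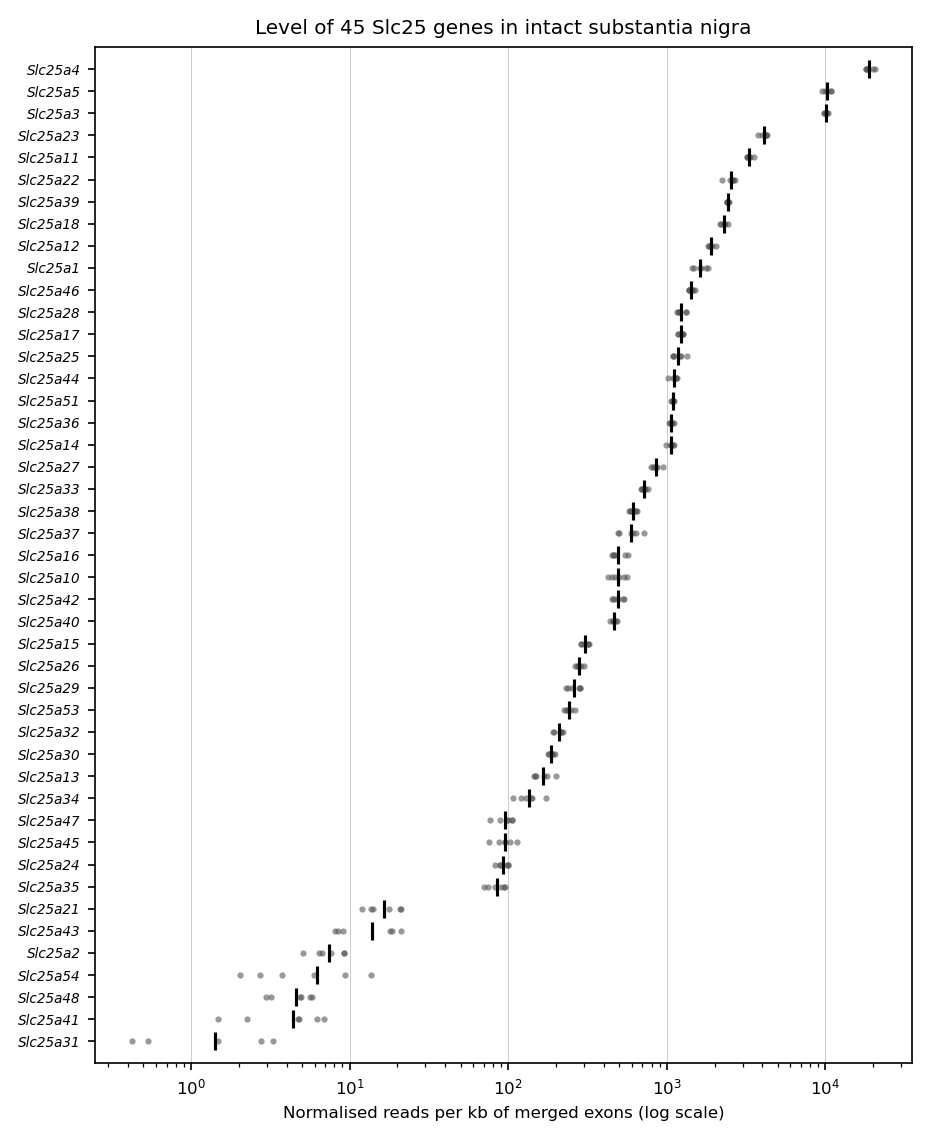
Level of 45 carriers in intact substantia nigra, as normalised reads per kb of merged exons on a log axis. Points are the 6 libraries and bars their mean, and libraries at 0 are not drawn (1 intact library of Slc25a31). Slc25a4, Slc25a5 and Slc25a3 stand apart at the top, and 7 carriers lie under 20 per kb.

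The lowest levels belonged to carriers best known from other organs or little studied. Slc25a31, the ADP/ATP carrier of testis, was at 1.41 normalised reads per kb on average, with a range of 0 to 3.29, and Slc25a41, an ATP-Mg/phosphate carrier, was at 4.37 ± 2.13. Both failed the filter on low values and were not tested, which left 44 carriers. Slc25a48, Slc25a54, Slc25a2, Slc25a43 and Slc25a21 were between 4.56 and 16.5 per kb on average. Together with Slc25a31 and Slc25a41 they form a group of 7 low carriers, since the next one, Slc25a35, was at 84.4.

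Related carriers were used to unequal degrees. Slc25a12 made up 92.0 ± 0.694% of the per-kb level it shares with its paralog Slc25a13, known as citrin, in intact tissue (SD, n = 6). Slc25a23 made up 97.8 ± 0.130% of its sum with Slc25a24. The 2 glutamate carriers were closer, with Slc25a22 at 52.7 ± 2.11% of its sum with Slc25a18. Slc25a4 made up 64.8 ± 0.629% of its sum with Slc25a5, a share of 64.2 ± 0.633% among AAV-GFP and of 64.8 ± 0.747% among AAV-SIRT3 libraries.

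The ADP/ATP carriers are close in sequence, so their coding bases are shown to let the separation of their reads be judged. Their coding sequences are 897 bases each in GENCODE M21, of which 695 positions are identical (77.5%). The stretch of 120 bases where they are most alike, bases 28 to 147 of the coding sequence counted from the start codon, is printed 5′ to 3′ with the 18 bases that differ in capitals.

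Slc25a4: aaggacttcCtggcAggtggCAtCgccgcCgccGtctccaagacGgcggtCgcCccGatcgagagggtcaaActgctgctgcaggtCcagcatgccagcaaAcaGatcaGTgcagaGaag

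Slc25a5: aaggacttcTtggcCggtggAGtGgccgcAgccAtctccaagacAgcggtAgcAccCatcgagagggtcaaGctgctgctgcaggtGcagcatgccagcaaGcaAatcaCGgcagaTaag

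The differing bases are spread through the stretch, and even here 102 of 120 positions are identical. Across the transcripts of all 46 carriers and the pseudogene Slc25a5-ps, 0 of 1081 pairs share an identical run as long as a read of 100 bases. The longest run, 97 bases, was between Slc25a5 and Slc25a5-ps, and the next, 48 bases, between Slc25a12 and Slc25a21. Of the 46 carriers, 23 overlap another annotated gene, and whether the counting used strand is not given in the sources used here.

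Both AAV groups received a virus, so AAV-SIRT3 against AAV-GFP sets a virus carrying SIRT3 beside one carrying GFP. The presence of SIRT3 and the absence of GFP cannot be told apart there. No carrier passed the threshold (adjusted p under 0.05 over all 19443 genes tested): 0 of 44, where 0.113% of all genes tested did (0.036% as higher and 0.0771% as lower). edgeR and DESeq2 on the recovered reads called 0 carriers too. Without adjustment 12 of 44 carriers were under 0.05, against 15.2% of all genes. The log2 fold change was above 0 for 35 of 44, against 48.6% of all genes. Its median was 0.05 over the carriers and -0.004 over all genes. At a mean of at least 1000 normalised reads it was 0.06 over 29 carriers and 0.01 over 8536 genes. Up to 2738.5 bases of merged exons, the median length of the tested carriers, it was 0.08 over carriers and 0.03 over all genes. Above that length it was 0.02 and -0.02. The 44 carriers share the same libraries, so these counts are descriptions. Fold changes are on the scale of log2(normalised reads + 1), which understates those of low genes.

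The smallest adjusted p among the carriers belonged to Slc25a39, which brings glutathione into mitochondria. Its 6 AAV-GFP libraries had a lowest, median and highest value of 4050, 4237 and 4546 normalised reads and its AAV-SIRT3 libraries 4339, 4683 and 4955. The groups overlapped through AAV-GFP replicates 2 and 6 and the lower AAV-SIRT3 libraries, with 33 of 36 pairs of libraries higher for AAV-SIRT3. The log2 fold change was 0.13 (SE 0.0381, limma adjusted p = 0.129). Slc25a11 had 0.14 (SE 0.0428, limma adjusted p = 0.153) and Slc25a33, a pyrimidine nucleotide carrier, 0.15 (SE 0.0510, limma adjusted p = 0.180).

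These are the 3 carriers whose call depended on AAV-GFP replicate 2. Without that library Slc25a11 passed with 0.17 (limma adjusted p = 0.0184), Slc25a33 with 0.19 (0.0280) and Slc25a39 with 0.15 (0.0282). In the same fit 861 genes passed in all, where 22 did with every library. Leaving out any of the other 17 libraries gave 0 carriers.

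The role groups had small medians. All 4 dicarboxylate and tricarboxylate carriers were above 0 in AAV-SIRT3 against AAV-GFP, with a median log2 fold change of 0.12, as were all 5 amino acid carriers other than those of aspartate and glutamate (0.09) and both tested ADP/ATP carriers (0.08). All 4 aspartate and glutamate carriers (0.04) and all 4 tested carriers of phosphate and ATP-Mg (0.05) were above 0 too. So were 7 of 9 carriers of coenzymes and nucleotides (0.04) and 2 of 4 iron and glutathione carriers (0.03). Of the outer membrane and less characterised members 5 of 9 were (0.01). The uncoupling-protein-like carriers, related by sequence to the uncoupling protein of brown fat, ranged from -0.09 for Slc25a30 to 0.11 for Slc25a14. None of these values passed the threshold.

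Groups that did not overlap were seen for 1 of 44 carriers, against 0.751% of all genes. It was Slc25a54, singled out after its values were seen, with 7.26, 11.9 and 15.9 normalised reads (lowest, median and highest) in AAV-GFP and 3.68, 5.07 and 6.94 in AAV-SIRT3. Its log2 fold change was -0.97 (SE 0.383, limma adjusted p = 0.243), at a level of a few reads per library. The intact libraries ran from 3.42 to 22.7 and spanned both groups. No AAV-SIRT3 library reached 10 normalised reads, so Slc25a54 passed the filter on low values through AAV-GFP and intact libraries alone. Its lack of overlap therefore follows in part from that filter, and no conclusion is drawn from it.

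AAV-GFP against intact asks what came with the virus, its delivery and GFP. Again 0 of 44 carriers passed, where 1.84% of all genes did (0.823% as higher and 1.02% as lower), and edgeR and DESeq2 called 0 carriers. Without adjustment 5 of 44 were under 0.05, against 19.1% of all genes, and 0 carriers had groups that did not overlap, against 1.86%. Signs were mixed, with 24 of 44 above 0, against 50.2% of all genes, and a median of 0.02, against 0.0007 over all genes.

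Slc25a37, mitoferrin 1, the iron importer of erythroid cells, was nearest to the threshold, and is named here after its values were seen. Intact libraries had 2041, 2519 and 2981 normalised reads (lowest, median and highest) and AAV-GFP libraries 2710, 2903 and 3004. The AAV-GFP libraries lay close together while the intact ones were spread, and the groups overlapped. The log2 fold change was 0.23 (SE 0.0762, limma adjusted p = 0.0968). It was the 1 carrier of 44 to pass once intact replicate 2 was left out. In that fit 462 of 19443 genes passed in all, where 358 did with every library. Among the carriers named by rule, Slc25a12 was at 11563, 11916 and 12964 in intact libraries and at 10885, 11311 and 11915 in those of AAV-GFP, a log2 fold change of -0.09 (SE 0.0340, limma adjusted p = 0.174).

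AAV-SIRT3 against intact takes in the virus, its delivery and SIRT3, and uses the same libraries as the comparisons above. Here 9 of 44 carriers passed, 7 higher and 2 lower, or 20.5%, where 21.7% of all genes did (11.3% higher and 10.3% lower). The share of carriers called was thus close to the background. By direction, 15.9% of carriers rose and 2 of 44 fell. At a mean of at least 1000 normalised reads, 27.6% of 29 carriers passed, against 32.1% of 8536 genes, and 24.1% against 20.1% rose. The median log2 fold change was 0.07 over the carriers and -0.005 over all genes. At a mean of at least 1000 it was 0.07 over the carriers and 0.02 over all genes. Above 0 were 31 of 44 carriers, against 49.1% of all genes. Groups did not overlap for 5 of 44 carriers, against 9.33% of all genes.

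**Figure D2:**
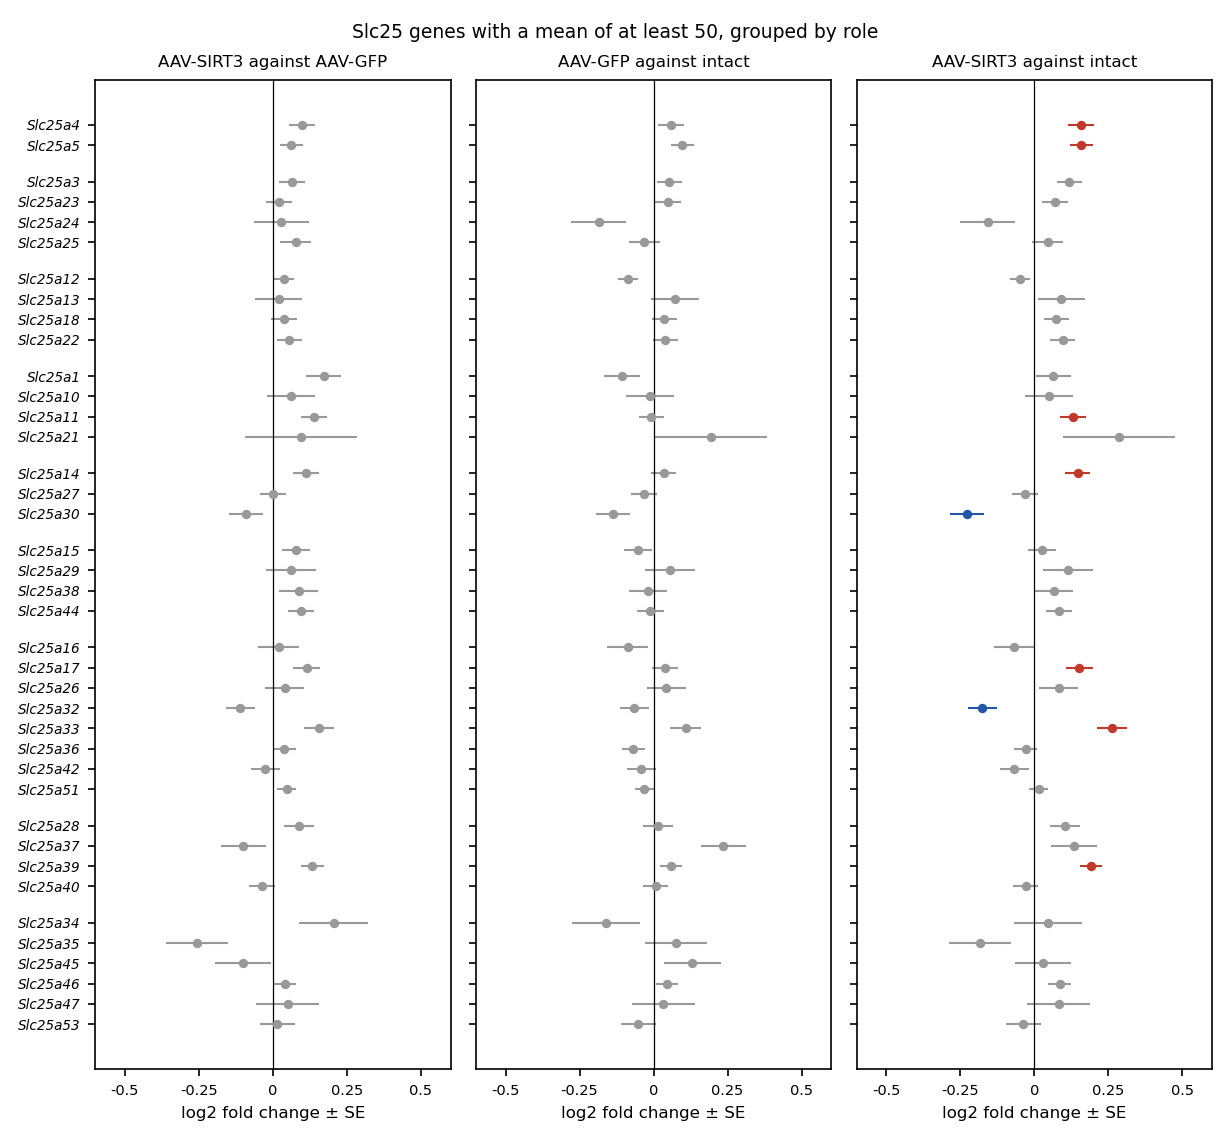
log2 fold change with its SE (bars) of 39 tested carriers with a mean of at least 50 normalised reads, 1 panel per comparison, ordered by role from the ADP/ATP carriers at the top. Red and blue points passed the threshold as higher and lower. Only the panel of AAV-SIRT3 against intact has coloured points, 7 red and 2 blue, and all 9 lie between -0.23 and 0.26.

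Both tested ADP/ATP carriers rose in AAV-SIRT3 over intact tissue, each by 11.6% of its mean. Of all genes 11.3% rose there, and 20.1% of those with a mean of at least 1000 normalised reads. In GENCODE M21, Slc25a4 spans 46206797 to 46211284 of chromosome 8 (minus strand) and Slc25a5 spans 36795651 to 36798807 of chromosome X (plus strand). Slc25a4 had a lowest, median and highest value of 34804, 35377 and 39429 normalised reads in intact, 34940, 37886 and 41273 in AAV-GFP and 37182, 40735 and 42943 in AAV-SIRT3. Of 36 pairs of libraries 34 were higher in AAV-SIRT3, and the groups overlapped through the lowest AAV-SIRT3 library and the highest intact ones. Slc25a4 rose by 0.16 on the log2 scale (SE 0.0441, limma adjusted p = 0.0143).

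Slc25a5 had 11794, 12680 and 13501 normalised reads in intact, 12879, 13453 and 15001 in AAV-GFP and 13662, 14285 and 14749 in AAV-SIRT3. The AAV-SIRT3 libraries all lay above the intact ones, and those of AAV-GFP reached into both. Slc25a5 rose by 0.16 as well (SE 0.0396, limma adjusted p = 0.00754).

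The phosphate carrier Slc25a3, which supplies the phosphate for ATP synthesis, stayed just short of the threshold. Its intact libraries had 18963, 19653 and 20111 normalised reads, its AAV-GFP libraries 19026, 19986 and 22603 and its AAV-SIRT3 libraries 19795, 21408 and 22861. AAV-SIRT3 was higher than intact in 32 of 36 pairs, with a log2 fold change of 0.12 (SE 0.0429, limma adjusted p = 0.0530). It passed in 8 of 30 other settings, among them DESeq2 on the recovered reads. Among the other carriers of phosphate and ATP-Mg, fold changes ran from -0.16 for Slc25a24 to 0.07 for Slc25a23, and 0 of 3 tested passed.

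Of the carriers of the malate-aspartate shuttle, Slc25a11 passed as higher, while the aspartate/glutamate carriers Slc25a12 and Slc25a13 did not pass. The difference between them was not tested. Slc25a11, which exchanges oxoglutarate for malate, spans 70644196 to 70647479 of chromosome 11 (minus strand) and overlaps Rnf167 on the other strand. It had 5467, 5588 and 6079 normalised reads in intact, 5264, 5576 and 6348 in AAV-GFP and 5809, 6319 and 6456 in AAV-SIRT3. The AAV-GFP median was level with the intact one, and AAV-GFP replicate 2 alone reached the AAV-SIRT3 median. Against intact the log2 fold change was 0.13 (SE 0.0428, limma adjusted p = 0.0332). The call was lost in 12 of 30 other settings, among them 8 of 18 fits without 1 library.

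Slc25a12 had 11139, 11710 and 11946 normalised reads in AAV-SIRT3 libraries, and 3 of these 6 libraries lay below the intact range given above. The log2 fold change against intact was -0.05 (SE 0.0340, limma adjusted p = 0.331). Slc25a22, the glutamate carrier, had 6433, 7496 and 7803 in intact, 7111, 7514 and 8173 in AAV-GFP and 7566, 7876 and 8023 in AAV-SIRT3, with a log2 fold change against intact of 0.10 (SE 0.0422, limma adjusted p = 0.110). Intact replicate 1 was the lowest of all 18 libraries for Slc25a22. Of the 4 shuttle enzymes, malate dehydrogenases Mdh1 (0.22, limma adjusted p = 0.00332) and Mdh2 (0.16, limma adjusted p = 0.0279) rose, where 11.3% of all genes did. The aspartate aminotransferases Got1 (0.09) and Got2 (0.08) did not pass.

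Of the 3 uncoupling-protein-like carriers 1 rose, 1 fell and 1 did not pass, where 11.3% of all genes rose and 10.3% fell. In GENCODE M21 Slc25a14 spans 48623413 to 48662294 of chromosome X (plus strand) and Slc25a30 spans 75760117 to 75787037 of chromosome 14 (minus strand). Slc25a14, known as UCP5 and expressed in brain, had 1801, 1919 and 2008 normalised reads in intact, 1807, 1989 and 2083 in AAV-GFP and 2008, 2118 and 2273 in AAV-SIRT3. The lowest AAV-SIRT3 library met the highest intact one, with 35 of 36 pairs higher for AAV-SIRT3. Slc25a14 rose by 0.15 on the log2 scale (SE 0.0431, limma adjusted p = 0.0197). Slc25a30, known as KMCP1 and first described in kidney, had 642.8, 668.0 and 705.4 in intact, 553.9, 618.9 and 653.8 in AAV-GFP and 538.6, 566.6 and 606.4 in AAV-SIRT3.

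All AAV-SIRT3 libraries of Slc25a30 lay below all intact ones, and the AAV-GFP libraries fell into 3 at the intact level and 3 at the AAV-SIRT3 level. Slc25a30 fell by 0.23 on the log2 scale (SE 0.0570, limma adjusted p = 0.00788). Slc25a27, known as UCP4 and neuronal, had 3121, 3312 and 3718 normalised reads in intact, 3067, 3301 and 3398 in AAV-GFP and 3146, 3231 and 3586 in AAV-SIRT3. Its groups overlapped almost fully, with a log2 fold change against intact of -0.03 (SE 0.0437, limma adjusted p = 0.643). As a share of the per-kb sum with Slc25a14, Slc25a27 took 42.9 to 48.8% in intact libraries and 39.9 to 42.8% in AAV-SIRT3 libraries, with 40.4 to 46.4% in AAV-GFP libraries overlapping both, a description with no test.

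Among 9 carriers of coenzymes and nucleotides, 2 rose and 1 fell, where 11.3% of all genes rose and 10.3% fell. Slc25a33, which brings pyrimidine nucleotides into mitochondria for their own DNA and RNA, had the largest rise of any carrier that passed. It spans 149744036 to 149774277 of chromosome 4 (minus strand), where Gm13068 is annotated on the other strand. It had 1298, 1346 and 1444 normalised reads in intact, 1358, 1423 and 1662 in AAV-GFP and 1529, 1624 and 1742 in AAV-SIRT3. Every AAV-SIRT3 library lay above every intact one, and of the AAV-GFP libraries replicates 2 and 6 reached the AAV-SIRT3 range. Slc25a33 rose by 0.26 on the log2 scale (SE 0.0510, limma adjusted p = 0.00172).

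The other pyrimidine nucleotide carrier, Slc25a36, did not pass (-0.03, limma adjusted p = 0.641). Its share of the per-kb sum with Slc25a33 ran from 57.2 to 61.2% in intact libraries and from 51.9 to 56.6% in AAV-SIRT3 libraries, which did not overlap, while AAV-GFP libraries overlapped both with 51.3 to 59.4%. This is a description with no test. Slc25a17 (chromosome 15, 81318911 to 81360812, minus strand), a peroxisomal carrier of coenzyme A and other nucleotides, had 2013, 2146 and 2172 normalised reads in intact, 2066, 2156 and 2372 in AAV-GFP and 2186, 2321 and 2541 in AAV-SIRT3. Intact and AAV-SIRT3 libraries did not overlap, though the gap was narrow. Slc25a17 rose by 0.15 on the log2 scale (SE 0.0451, limma adjusted p = 0.0202), and lost the call without AAV-SIRT3 replicate 5 or 6.

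Slc25a32 (chromosome 15, 39091231 to 39112716, minus strand), the carrier linked to folate and FAD, had 1137, 1257 and 1309 normalised reads in intact, 1106, 1167 and 1268 in AAV-GFP and 1028, 1089 and 1162 in AAV-SIRT3. AAV-SIRT3 was lower in 34 of 36 pairs with intact, and the AAV-GFP libraries overlapped both groups. It fell by 0.18 on the log2 scale (SE 0.0489, limma adjusted p = 0.0146). No other carrier of this role passed, with log2 fold changes of 0.08 for Slc25a26, which carries S-adenosylmethionine, 0.01 for Slc25a51, which carries NAD, and -0.07 for Slc25a42, which carries coenzyme A. Slc25a51 varied little, with a range of 4697 to 4889 normalised reads over intact libraries and of 4623 to 5105 over AAV-SIRT3 libraries.

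Of the iron and glutathione carriers, Slc25a39 rose, which spans 102402985 to 102407946 of chromosome 11 (minus strand). The 6 intact libraries lay between 4036 and 4122 normalised reads, a coefficient of variation of 0.975%, the smallest of the 40 carriers with a mean of at least 50. Its AAV-GFP and AAV-SIRT3 values, given above, were spread more widely, and every AAV-SIRT3 library was above every intact one. Slc25a39 rose by 0.19 on the log2 scale (SE 0.0381, limma adjusted p = 0.00192). Slc25a40, the paralog with the same substrate, did not pass (-0.03, limma adjusted p = 0.671).

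Slc25a39 made up 83.5 to 84.6% of the per-kb sum of both glutathione carriers in intact libraries and 85.1 to 87.1% in AAV-SIRT3 libraries. These ranges did not overlap, and the AAV-GFP libraries overlapped both with 83.4 to 86.4%, as a description with no test. Slc25a39, Slc25a33 and Slc25a14 were themselves called in AAV-SIRT3 against intact, so their shares add nothing to those calls. Intact and AAV-SIRT3 ranges of the share overlapped for Slc25a4 with Slc25a5, Slc25a12 with Slc25a13 and Slc25a22 with Slc25a18. They also overlapped for Slc25a23 with Slc25a24 and Slc25a37 with Slc25a28. The iron importers Slc25a37 and Slc25a28, mitoferrins 1 and 2, had log2 fold changes of 0.13 (limma adjusted p = 0.219) and 0.10 (limma adjusted p = 0.144) and did not pass.

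**Figure D3:**
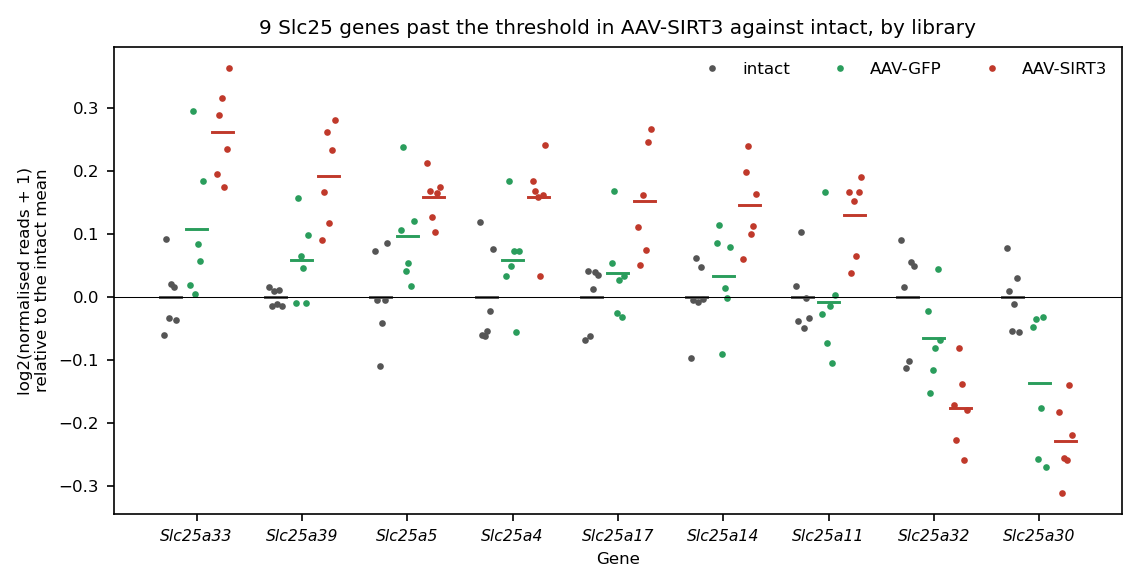
Value of the 9 carriers that passed in AAV-SIRT3 against intact, in each of the 18 libraries, as log2(normalised reads + 1) less the intact mean. Points are libraries and bars group means. For Slc25a33, Slc25a39, Slc25a5 and Slc25a17 all red points lie above all grey ones and for Slc25a30 below, and the AAV-GFP bar lies between the other bars for all but Slc25a11.

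No carrier passed among the 5 amino acid carriers, the 4 aspartate and glutamate carriers or the 9 outer membrane and less characterised members. In AAV-SIRT3 against intact 21.7% of all genes passed. Amino acid carriers lay between 0.02 for the ornithine carrier Slc25a15 and 0.27 for Slc25a2, which had only 6.99 to 12.7 normalised reads in intact libraries. The lowest fold change of the family was that of Slc25a43, a less characterised member, at -0.93 (SE 0.344, limma adjusted p = 0.0578), with a median of 15.0 normalised reads in intact and 6.29 in AAV-SIRT3 libraries. The citrate carrier Slc25a1, which exports citrate for lipid synthesis, had 0.06 against intact and 0.17 against AAV-GFP (limma adjusted p = 0.474 and 0.204). Slc25a46, an outer membrane protein of mitochondrial fusion and fission, was at 6234 ± 236 in intact and 6618 ± 374 in AAV-SIRT3 libraries, a log2 fold change of 0.09 (limma adjusted p = 0.110).

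Genes around the carriers were counted from lists drawn up for this purpose, to be read beside the 11.3% of all genes that passed as higher and the 10.3% that passed as lower in AAV-SIRT3 against intact. In AAV-SIRT3 against intact, 2 of 4 tested genes with the carrier fold under other symbols rose, Mtch1 (0.23) and Mtch2 (0.11), both of the outer membrane, while the uncoupling proteins Ucp2 (-0.01) and Ucp3 (-0.14) did not pass. Of 22 other mitochondrial transporters and channels 9 rose and 1 fell. The risers included the voltage-dependent anion channels Vdac1 (0.14), Vdac2 (0.16) and Vdac3 (0.13), through which carrier substrates cross the outer membrane, and Mpc2 (0.21) of the pyruvate carrier. The 1 that fell was Slc8b1 (-0.28), the sodium/calcium exchanger of mitochondria.

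Of 13 genes for the import of carrier proteins 5 rose, where 11.3% of all genes did: Tomm22 (0.23) and Tomm40 (0.25) of the outer membrane gate and Timm10 (0.33), Timm13 (0.30) and Timm8b (0.21), small chaperones of the intermembrane space. The inner membrane insertase Timm22 (0.08) did not pass. Shorter genes rose more often than longer ones in this comparison, as given below, and the list was not compared at like length. In AAV-SIRT3 against AAV-GFP and in AAV-GFP against intact 0 genes of these lists passed. At an unadjusted p under 0.05 there were 8 of 22 transporters, 4 of 13 import genes, 1 of 4 carrier-fold genes and 3 of 4 shuttle enzymes in the first, and 5, 1, 0 and 1 in the second, where 15.2% and 19.1% of all genes were under it.

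The carriers that rose had shorter transcripts than those that fell. All 7 risers were among the 22 shorter carriers (1111 to 2711 bases of merged exons), or 31.8% of them, and both that fell were among the 22 longer ones (2766 to 6351 bases). The same lean was seen in all genes: of those up to 2738.5 bases, the median length of the tested carriers, 17.3% rose and 4.46% fell, and of the longer ones 6.32% rose and 15.4% fell. Across the 44 carriers Spearman's rho of fold change with length was -0.45 in AAV-SIRT3 against intact, -0.42 in AAV-SIRT3 against AAV-GFP and -0.27 in AAV-GFP against intact. Over all 18824 genes with a length it was -0.27, -0.19 and -0.20. These are descriptions across genes that share the same libraries.

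With the trend of length and GC content removed from each library, 12 of 44 carriers passed in AAV-SIRT3 against intact. Of these 10 were higher and 2 lower, and 7 were among the 9 above. In that fit 4380 of 18824 genes passed. Slc25a33 kept 0.24, Slc25a39 0.13, Slc25a4 0.15 and Slc25a5 0.16. Slc25a11 (0.10, limma adjusted p = 0.0560) and Slc25a32 (-0.05, limma adjusted p = 0.504) no longer passed, while Slc25a3, Slc25a36, Slc25a43, Slc25a46 and Slc25a51 newly did. Of the 18824 genes 3299 rose and 1081 fell in that fit, against 2206 and 2008 of 19443 without the removal.

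**Figure D4:**
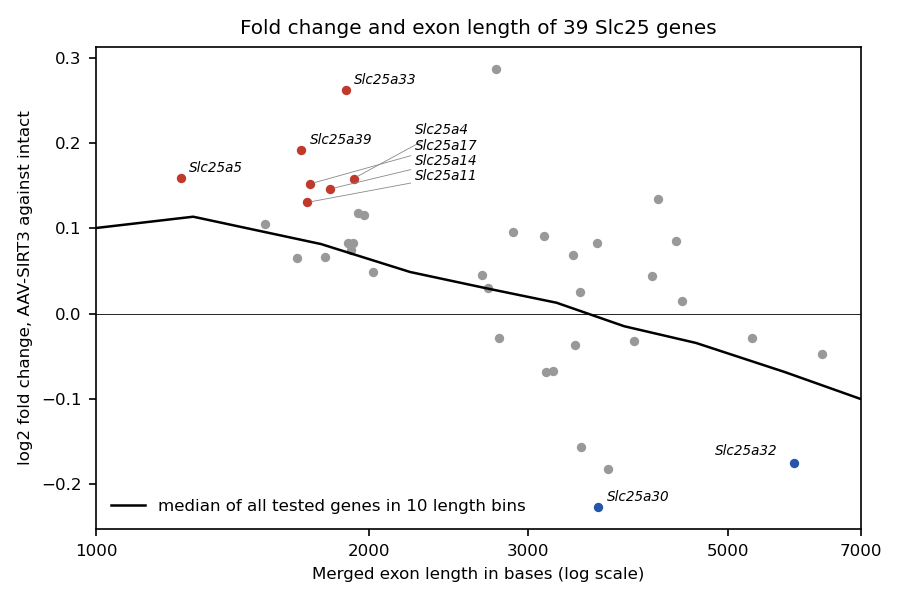
log2 fold change of AAV-SIRT3 against intact for 39 tested carriers with a mean of at least 50 normalised reads, against the merged exon length on a log axis. Red and blue points passed as higher and lower, and the line joins the medians of all tested genes in 10 bins of length. The 7 red points lie at or under 1925 bases and above the line, and the line falls below 0 at the longer lengths.

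The thalamus markers moved with the groups, as given above. With each library's thalamus score in the model, 1883 of 19443 genes passed in AAV-SIRT3 against intact, where 4214 did without it. Of the 44 carriers 4 passed: Slc25a11 (0.18), Slc25a33 (0.23), Slc25a39 (0.21) and, newly, Slc25a1. The other carriers called before had fold changes about as large as then but did not pass, at adjusted p between 0.0569 and 0.158 (limma). They were 0.17 for Slc25a4, 0.14 for Slc25a5 and for Slc25a14, 0.13 for Slc25a17, -0.21 for Slc25a30 and -0.18 for Slc25a32. Over the 44 carriers the median became 0.03, with 24 above 0. The part of the other marker lists given above in these results was not tested.

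Promoters were compared for short letter motifs across the family. Windows of 300 bases, from 250 before to 50 after the start, were at hand for 35 of 46 carriers in RefSeq (GRCm38.p6). These 35 carriers had 45 windows, and a gene was counted if any of its windows held the letters. The letters GGGCGG, the GC box bound by SP1, were found on either strand in 29 of 35 carriers (82.9%). They were found in 63.2% of 13381 tested genes and 38.2% of all 27025 genes with a window. All 8 of the called carriers with a window held it. The promoters of Slc25a33, the largest riser, and Slc25a30, the largest faller, are printed 5′ to 3′ on their own strand as the bases just outside the annotated gene, with the GC box or its complement CCGCCC in capitals.

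Slc25a33 (chr4:149774278-149774517, minus strand): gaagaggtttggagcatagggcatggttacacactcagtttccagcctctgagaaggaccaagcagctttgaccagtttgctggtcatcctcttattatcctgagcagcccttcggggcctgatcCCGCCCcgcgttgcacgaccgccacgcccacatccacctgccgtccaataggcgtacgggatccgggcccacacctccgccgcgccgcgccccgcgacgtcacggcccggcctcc

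Slc25a30 (chr14:75787038-75787287, minus strand): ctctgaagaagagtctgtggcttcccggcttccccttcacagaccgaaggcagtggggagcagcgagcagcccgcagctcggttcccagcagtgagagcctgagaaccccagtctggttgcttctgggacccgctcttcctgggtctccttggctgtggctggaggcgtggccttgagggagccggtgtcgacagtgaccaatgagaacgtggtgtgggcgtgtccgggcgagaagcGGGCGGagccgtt

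The riser and the faller each hold 1 match, starting 115 and 13 bases before the gene. Other letters searched on both strands were found in few carriers. The NRF1 motif was in 2 of 35 carriers (5.71%, against 9.45% of tested genes) and the CREB motif TGACGTCA in 2 (5.71%, against 3.17%). The TATA box TATAAA was in 2 (5.71%, against 9.65%) and the YY1 motif AAGATGGC in 1 (2.86%, against 4.42%). The ERR motif TCAAGGTCA and the GABP motif CCGGAAGT were in 0 of 35 carriers, against 0.351% and 7.49% of tested genes. A match is a description of the letters and says nothing about binding.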

How the data were processed

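RNA of the substantia nigra was sequenced in 18 stranded poly-A libraries with paired reads of 100 bases, per the labels' protocols. Each deposited value is a signal, namely the HTSeq reads of a gene divided by a DESeq2 size factor by the authors, per the name of the deposited table. The submitters' processing notes name HISAT2 2.1.0, DESeq2 1.34.0 and mm10. The annotation and the strand setting are not given in the sources used here. Each size factor was inferred from the values, as 1 over the smallest value above 0 of its library, taken as 1 read. Multiplying by it gave whole reads for 100% of values above 0 (tolerance 1e-06). This is a weaker sign in intact and AAV-SIRT3 replicate 4, whose factors are near 1. Reads are not unique molecules, so depth covers counting error only. All 18 columns were matched to samples by the samples' descriptions.

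The test was limma 3.58.1 (R 4.3.3) on log2(value + 1), with 3 groups in 1 model (15 residual degrees of freedom), a trend in the prior variance and Benjamini-Hochberg adjustment over the 19443 genes that reached 10 normalised reads in 6 or more libraries. It was tested on simulated data. Settings tried were other scalings, pseudocounts and filters, the count tests of edgeR 4.0.16 and DESeq2 1.42.0 run on recovered reads, a replicate block, a thalamus covariate, removal of length and GC trends, and leaving out each library.

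Members, lists and tests were chosen with earlier results of these data known. Named in any case are Slc25a3, Slc25a4, Slc25a5, Slc25a11, Slc25a12, Slc25a14, Slc25a22 and Slc25a27, and in addition each carrier past the threshold. Symbols gave exon lengths and positions in GENCODE M21 (GRCm38) for 49093 of 55270 genes. Some items are not reported or drawn here.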

Additional observations from a re-analysis of the deposited data

Results flagged for a closer look

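Groups of 6 libraries were screened for a highest or lowest library whose distance from the next one, as a share of the range, exceeded Dixon's critical value. Of 39 groups of values from the 13 named carriers, 2 met this, where 1.95 would by chance. Slc25a11 in AAV-GFP replicate 2 was at 6348 normalised reads, with the next library at 5668 and the lowest at 5264. Without that library Slc25a11 differed between AAV-SIRT3 and AAV-GFP by 0.17 on the log2 scale (limma adjusted p = 0.0184), against 0.14 (0.153) with it. Slc25a27 in AAV-SIRT3 replicate 2 was at 3586, with the next at 3306 and the lowest at 3146. No call of Slc25a27 depended on it.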

How the results depend on the processing

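Over 1170 recomputed values of the 13 named carriers, 1124 kept direction and side of the threshold, 21 lost a call, 12 gained one and 13 changed sign. The count of carriers in AAV-SIRT3 against intact, 9, was 4 with the thalamus covariate and 7 to 10 when 1 library was left out. It ran from 0 to 3 over the fits without 1 library in AAV-SIRT3 against AAV-GFP, and from 0 to 1 in AAV-GFP against intact, where 1 passed at an adjusted p under 0.1. Over all genes, the 22 of AAV-SIRT3 against AAV-GFP became 308 with DESeq2 (152 higher and 156 lower), 8 with the compared groups alone, 287 with length and GC trends removed (233 higher and 54 lower, against 7 and 15), 80 at an adjusted p under 0.1, and 5 (without AAV-SIRT3 replicate 5) to 861 (without AAV-GFP replicate 2) without 1 library. It was 9 to 12 without AAV-GFP replicate 1, 3, 4 or 5 and 38 without AAV-GFP replicate 6. The 358 of AAV-GFP against intact became 164 with all genes above 0, 979 with DESeq2, 199 with the compared groups alone, 32 with the thalamus covariate (29 higher and 3 lower, against 160 and 198), 1144 at an adjusted p under 0.1, and 129 to 686 without 1 library, the ends belonging to intact replicate 3 and AAV-GFP replicate 1. It was 139 to 168 without intact replicate 4 or 5 or AAV-GFP replicate 2, 3 or 5, and 540 without intact replicate 6. With length and GC trends removed it was 396, split 268 higher and 128 lower. The 4214 of AAV-SIRT3 against intact became 1883 with the thalamus covariate. With quantile normalisation the 9 carriers split into 6 higher and 3 lower, against 7 and 2. edgeR on recovered reads called 25, 352 and 4155 genes and 0, 0 and 9 carriers in the same order. The causes were not tested.

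Signs that changed belonged to values near 0. In AAV-SIRT3 against AAV-GFP Slc25a27 (0.0005) was -0.0015 with TMM factors, -0.016 with quantile normalisation and -0.026 to 0.012 without 1 library. In AAV-GFP against intact Slc25a11 (-0.008) was 0.041 with the thalamus covariate and -0.043 to 0.013 without 1 library, and Slc25a22 (0.04) was -0.021 with that covariate. In AAV-SIRT3 against intact Slc25a12 (-0.05) was 0.058 and Slc25a27 (-0.03) was 0.024 with length and GC trends removed. Slc25a12 passed there as lower with quantile normalisation (limma adjusted p = 0.0451). Slc25a11 also lost its call with quantile normalisation and with all genes above 0.

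Libraries with the same replicate number were no more alike than others. Their deviations correlated between -0.095 and 0.175 (median -0.005), against -0.247 to 0.191 (median 0.0002) for libraries of unlike number. Of 18 libraries 1 correlated best with its own number. Whether the numbers stand for a pairing cannot be told from these values. With the replicate number as a block, carriers called were 0, 0 and 8, and all genes 13, 372 and 3923, in the order of the comparisons above; the carrier lost was Slc25a11 (limma adjusted p = 0.0592). Depth limits the carriers under 20 normalised reads per kb, of which Slc25a31 and Slc25a41 were not tested.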
